A study of Mus musculus with 32 samples.

Results

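The Asb genes encode proteins with ankyrin repeats and a SOCS box, and the 10 described here (Asb2, Asb4, Asb5, Asb8, Asb10, Asb11, Asb12, Asb14, Asb15 and Asb18) were taken by symbol from the 24421 genes of a raw read count table of mouse muscle and brainstem. The list was drawn up with the levels by tissue known, and Asb4 and Asb11 were put on it for differences between the genotypes. Those values are therefore given below as a description, with no p for either gene in a comparison of genotypes. All 10 symbols were found, and 8 other Asb genes in the table serve as comparison.

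An Asb protein is the adaptor of a ubiquitin ligase. Its ankyrin repeats bind a substrate, and its SOCS box binds the elongin B and C pair and a cullin, mostly Cul5 with the RING protein Rnf7 (Rbx2), which together bring the charged ubiquitin enzyme to the substrate. Skeletal muscle expresses many members of the family, and few substrates are known: Asb2 marks filamins, the actin crosslinkers of the cell cortex and the sarcomere's Z-disc, for degradation.

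RNA-seq had been run on albino mice of the strain B6(CG)Tyr(c-2J)/J, which carry a mutant Tyr and lack pigment, and on pigmented C57BL/6 mice. From each genotype there were 4 libraries of extraocular muscles (EOM, the muscles that move the eye), 4 of tibialis anterior (TA, a shin muscle), 4 of the oculomotor neuron (CN3) and 4 of the abducens motor neuron (CN6), 32 in all. Age, sex, time of collection and treatment are not given in the labels used here, nor whether the replicates came from different animals; the p-values below therefore describe only the spread among these libraries, which may be technical. Totals ran from 18544334 to 44254021 counts. CPM is counts scaled to a library's deposited total.

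The muscle and neuron markers went against the label in 8 of the 16 albino libraries and in none of the C57BL/6 libraries. Neuron markers were carried by replicates 1 and 2 of albino EOM and of albino TA, and muscle markers by replicates 3 and 4 of albino CN3 and of albino CN6. Comparisons use the 24 libraries whose markers fit their label, which leaves 2 albino and 4 C57BL/6 libraries per tissue; the other 8 are given apart. A second grouping places those 8 by their markers, as 2 more albino libraries per tissue, and its values are named as such. In the libraries kept, Myh13, the myosin of eye muscle, was at 4459 and 4378 CPM in albino EOM and at 4272 to 4980 CPM in C57BL/6 EOM, and Hoxc10, a limb position gene, was at 91.4 and 94.0 CPM in albino TA and at 86.2 to 98.7 CPM in C57BL/6 TA. Tyr itself was at or below 0.64 CPM in every library and checks nothing here. The albino and pigmented mice differed in a further gene: Nnt, the mitochondrial transhydrogenase that C57BL/6J mice lack in part, was at 163 and 166 CPM in albino EOM against 460 to 498 CPM in C57BL/6 EOM, and at 19.9 and 23.5 CPM in albino TA against 117 to 144 CPM in C57BL/6 TA. The mutant Tyr and this difference in strain background cannot be told apart.

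Muscle held 8 of the 10 members at levels far above those in brainstem, and Asb8 and Asb4 were the exceptions. Asb8, reported in human cells as an adaptor for the kinase Tbk1, was at 119.6 to 142 CPM over the 8 C57BL/6 muscle libraries and at 60.5 to 71.0 CPM over the 8 C57BL/6 brainstem libraries. Asb4, a maternally expressed imprinted gene, was at 2.96 to 17.5 CPM in C57BL/6 muscle and at 2.28 to 5.10 CPM in C57BL/6 brainstem, and its C57BL/6 EOM range of 2.96 to 3.56 CPM overlapped its C57BL/6 CN3 range of 2.28 to 3.03 CPM. Asb2 lay between 182 and 236 CPM in the EOM of C57BL/6 mice and between 501 and 690 CPM in their TA, and at 1.92 to 2.83 CPM in the 8 C57BL/6 brainstem libraries. The remaining members reached at most 1.504 CPM in a C57BL/6 brainstem library. Asb12 had no read in 6 of those 8 libraries, which allows up to 3 reads of each total. Asb11 had none in 3. These are bulk samples, in which fewer cells of a type and less RNA per cell cannot be told apart.

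Per kb of exon, the scale on which genes can be set against each other, Asb2 and Asb5 led in C57BL/6 TA. Asb5, first described in growing collateral arteries of rabbits, was at 168 ± 14.7 CPM per kb and Asb2 at 170 ± 22.5 CPM per kb (SD, n = 4), and their libraries overlapped. Next came Asb11 at 73.2 ± 4.97 and Asb14 at 69.7 ± 1.10 CPM per kb in C57BL/6 TA, which overlapped too. Asb8, Asb10, Asb15 and Asb12 followed, and Asb4 (4.16 CPM per kb) and Asb18 (1.96 CPM per kb) came last. In C57BL/6 EOM, Asb5 stood first with 88.4 ± 4.52 CPM per kb. Asb2 at 59.4 ± 6.21 and Asb8 at 54.2 CPM per kb overlapped behind it, and so did Asb11 at 39.3, Asb10 at 39.1 and Asb14 at 36.3 CPM per kb. Asb18 (1.44 CPM per kb) and Asb4 (0.824 CPM per kb) were again the lowest.

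**Figure D1:**
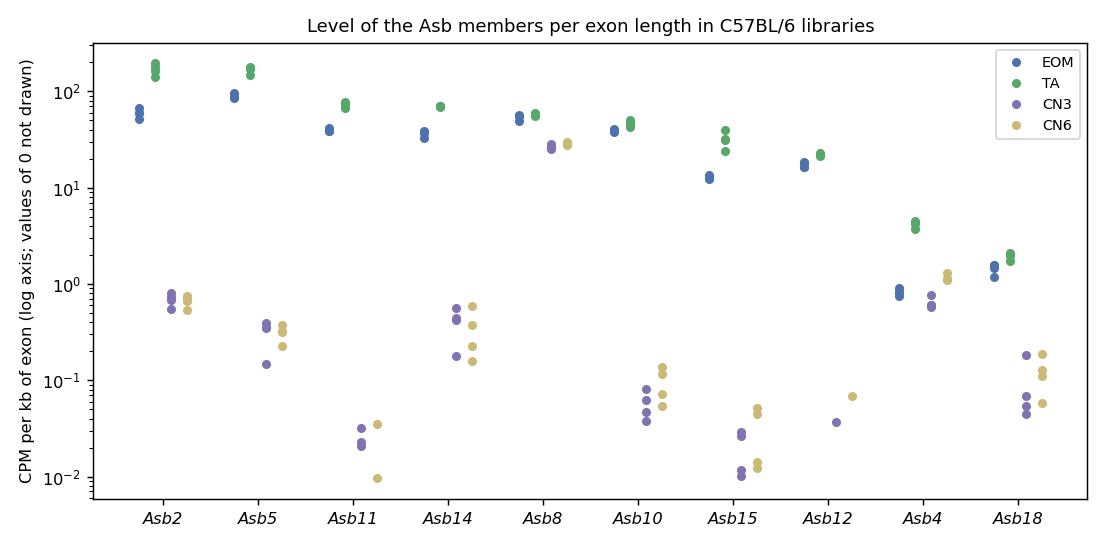
Level of each member per kb of exon (CPM per kb, log axis) in the C57BL/6 libraries; each point is a library, 4 per tissue, and libraries with no read of a gene are not drawn. Asb2 and Asb5 lead in TA, and Asb5 leads in EOM, where Asb2 and Asb8 overlap. In C57BL/6 brainstem Asb8, at 27.0 CPM per kb in CN3 and 28.7 CPM per kb in CN6, stands above the other 9.

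The order of the members shifted with genotype. In albino EOM Asb2 came first, at 137 ± 9.97 CPM per kb (SD, n = 2), ahead of Asb5 at 88.9 CPM per kb, whereas in C57BL/6 EOM it came after Asb5. Albino TA held Asb2 at 290 ± 36.9 CPM per kb and Asb5 at 170 CPM per kb. Asb11 was sixth of 10 in albino TA, at 41.3 CPM per kb, and the third in C57BL/6 TA, at 73.2 CPM per kb.

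The promoters of the members are shown because most of them are high in muscle and near 0 in brainstem. The 250 bases before each annotated start were read from RefSeq on GRCm38.p6, the build of the counts (mm10), for 15 starts of the 10 genes, on the strand of the gene and 5′ to 3′. Capitals mark the E-box CANNTG, the kind of site that myogenic factors bind, and the MEF2 site, the AT-rich site of another family of muscle factors. Shown are both starts of Asb2, a start each of Asb4 and Asb11, the genes put on the list for their genotype differences, and 3 promoters that hold a MEF2 site.
Asb2, chr12:103338391-103338640 (−): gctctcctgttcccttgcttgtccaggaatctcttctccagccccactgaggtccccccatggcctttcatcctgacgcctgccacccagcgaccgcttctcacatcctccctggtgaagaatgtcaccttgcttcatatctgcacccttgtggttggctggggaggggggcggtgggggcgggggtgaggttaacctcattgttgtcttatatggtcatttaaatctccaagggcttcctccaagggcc
Asb2, chr12:103356002-103356251 (−): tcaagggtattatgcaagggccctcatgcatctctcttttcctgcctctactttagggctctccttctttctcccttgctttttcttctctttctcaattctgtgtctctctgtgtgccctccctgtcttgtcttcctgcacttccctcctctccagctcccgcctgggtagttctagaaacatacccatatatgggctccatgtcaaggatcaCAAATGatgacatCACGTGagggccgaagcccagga
Asb4, chr6:5383136-5383385 (+): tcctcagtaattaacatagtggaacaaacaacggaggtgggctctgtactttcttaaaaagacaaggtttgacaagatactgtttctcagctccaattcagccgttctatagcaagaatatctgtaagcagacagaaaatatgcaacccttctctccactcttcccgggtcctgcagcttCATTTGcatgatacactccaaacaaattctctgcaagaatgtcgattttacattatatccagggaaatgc
Asb11, chrX:164436744-164436993 (+): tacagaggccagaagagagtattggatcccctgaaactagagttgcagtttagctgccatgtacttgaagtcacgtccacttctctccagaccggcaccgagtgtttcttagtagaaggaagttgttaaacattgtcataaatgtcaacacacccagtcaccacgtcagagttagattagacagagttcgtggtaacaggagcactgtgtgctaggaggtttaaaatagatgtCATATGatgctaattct
Asb5, chr8:54571189-54571438 (+): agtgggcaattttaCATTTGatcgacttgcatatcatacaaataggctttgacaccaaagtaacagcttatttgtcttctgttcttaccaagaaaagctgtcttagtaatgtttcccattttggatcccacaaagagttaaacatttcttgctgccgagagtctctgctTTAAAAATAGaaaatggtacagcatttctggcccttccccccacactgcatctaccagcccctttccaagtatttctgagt
Asb12, chrX:95478130-95478379 (−): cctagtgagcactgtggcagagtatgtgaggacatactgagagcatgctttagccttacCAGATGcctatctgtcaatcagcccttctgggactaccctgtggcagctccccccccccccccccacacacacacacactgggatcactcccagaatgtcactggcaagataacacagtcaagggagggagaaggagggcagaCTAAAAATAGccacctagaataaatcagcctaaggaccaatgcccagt
Asb18, chr1:90014667-90014916 (−): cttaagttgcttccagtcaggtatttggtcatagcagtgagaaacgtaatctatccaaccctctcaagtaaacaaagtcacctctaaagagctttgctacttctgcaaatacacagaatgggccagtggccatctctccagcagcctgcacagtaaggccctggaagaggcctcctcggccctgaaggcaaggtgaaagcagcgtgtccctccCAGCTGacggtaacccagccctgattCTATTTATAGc

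The MEF2 site, searched on both strands, was found in 4 of the 15 starts, 1 each of Asb5, Asb12, Asb14 and Asb18, and in 2.92% of 32807 promoters of the same length. It began 11 bases before the start in Asb18, 30 in Asb14, 48 in Asb12 and 81 in Asb5. CANNTG, which reads the same on both strands, was in 11 of the 15 starts, against 66.2% of all promoters. CAGCTG, the E-box most often linked to MyoD and myogenin, was in 1 of the 15 starts, that of Asb18, against 13.01% of all promoters. CACCTG or its reverse complement CAGGTG was in 1 (Asb10), against 17.2%. CACGTG, the E-box that the clock factors and Myc bind, was in 2, a start of Asb2 and a start of Asb15, against 6.02%. All of these except the MEF2 site are forms of CANNTG as well. The string CATTCC or its reverse complement GGAATG, the site of TEAD factors, was in 2, against 12.6%, and TTATGNAA or its reverse complement TTNCATAA was in 1, against 3.07%. A match is a string of letters, and whether a factor binds there was not measured.

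Between the genotypes, Asb2 was higher in albino EOM and albino TA. It was at 459 and 509 CPM in albino EOM and at 236, 212, 182 and 211 CPM in C57BL/6 EOM. In TA it was at 1121 and 936 CPM in albino libraries and at 630.0, 501, 690 and 582 CPM in C57BL/6 libraries. Every albino library was above every C57BL/6 library in both muscles. The log2 fold change was 1.22 ± 0.12 in EOM (SE; adjusted p = 5.4e-04, edgeR quasi-likelihood test with Benjamini-Hochberg adjustment over all genes) and 0.74 ± 0.11 in TA (adjusted p = 4.3e-04, same test). The libraries labelled albino CN3 3 and 4, which carry muscle markers, had 520 and 364 CPM, and those labelled albino CN6 3 and 4 had 986 and 844 CPM. With them placed by their markers the log2 fold change was 1.14 in EOM and 0.70 in TA.

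Asb10, Asb12 and Asb15 were called as well, so that of the 8 members tested without having been chosen for this contrast, 3 were higher and 1 was lower in albino EOM, where 32% of 15397 genes were called (14.5% higher, 17.6% lower). In albino TA, too, 3 were higher and 1 was lower, where 31.1% of 13295 genes were called (14.7% higher, 16.4% lower). With 8 genes, 4 calls in each muscle are read against those shares as no result about the family. As a description only, the median log2 fold change over all 10 members was 0.22 in EOM and 0.01 in TA. These medians take in Asb4 and Asb11, which were chosen for this contrast. Over all genes tested in the same 2 muscles the medians were 0.008 and 0.003.

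Asb10, a gene linked to glaucoma in humans, was at 152 and 146 CPM in albino EOM and at 114, 109, 106 and 110.1 CPM in C57BL/6 EOM. Its TA values were 188 and 172 CPM in albino libraries and 136, 141, 129 and 119 CPM in C57BL/6 libraries. The groups did not overlap in either muscle, and the log2 fold changes were 0.45 ± 0.07 in EOM (adjusted p = 0.0025, edgeR) and 0.43 ± 0.08 in TA (adjusted p = 0.0013, edgeR). Asb12, an X-linked member, was at 37.1 and 39.0 CPM in albino EOM and at 26.1, 28.4, 26.3 and 29.2 CPM in C57BL/6 EOM, a log2 fold change of 0.48 ± 0.10 (adjusted p = 0.0066, edgeR). That call was lost without albino EOM 4 (0.38, adjusted p = 0.058, edgeR). In TA it was at 49.6 and 48.8 CPM in albino libraries and at 34.6, 34.3, 36.2 and 35.5 CPM in C57BL/6 libraries, a log2 fold change of 0.46 ± 0.07 (adjusted p = 5.6e-04, edgeR). Its albino libraries were all above its C57BL/6 libraries.

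Asb15, which has been shown to alter the differentiation of mouse myoblasts in culture, was lower in albino muscle. In EOM it was at 38.0 and 48.1 CPM in albino libraries and at 57.4, 60.4, 55.3 and 57.8 CPM in C57BL/6 libraries, a log2 fold change of −0.40 ± 0.12 (adjusted p = 0.030, edgeR). In TA it was at 70.3 and 82.3 CPM in albino libraries and at 141, 108, 178 and 142 CPM in C57BL/6 libraries, a log2 fold change of −0.93 ± 0.16 (adjusted p = 7.6e-04, edgeR). No albino library reached the lowest C57BL/6 library in either muscle. The EOM call is not firm either, since without albino EOM 3 the log2 fold change was −0.24 with an adjusted p of 0.15, and the adjusted p was 0.076 without C57BL/6 EOM 2 and 0.067 without C57BL/6 EOM 4.

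**Figure D2:**
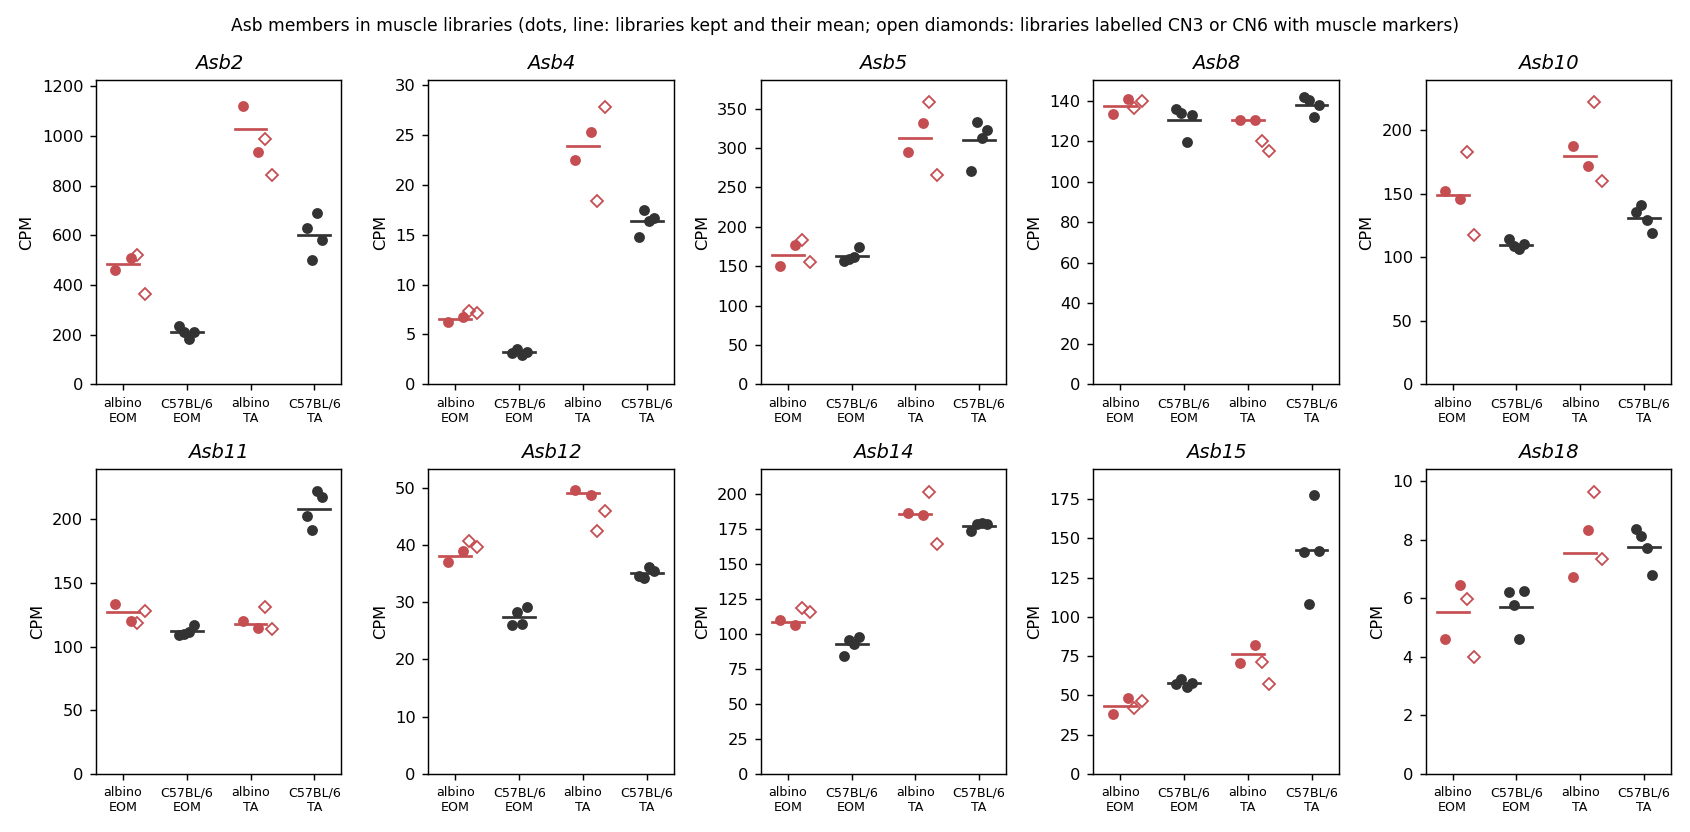
CPM of the members in muscle libraries, linear axes from 0, with albino left of C57BL/6 in EOM and in TA; dots are the libraries kept, lines their means, and open diamonds the 4 libraries labelled albino CN3 or CN6 that carry muscle markers. The albino TA libraries hold Asb11 at 115 and 120.3 CPM, below the 192 to 223 CPM of C57BL/6 TA.

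The calls in EOM depend on whether GC content and exon length are taken into account. With offsets for the GC content and exon length of each gene, an alternative chosen after seeing the data, 2585 genes were called in EOM in place of 4934, and of the 8 members only Asb2 was (log2 fold change 0.90, adjusted p = 0.0021, edgeR). Asb10 then came to 0.13 (adjusted p = 0.23), Asb12 to 0.28 (adjusted p = 0.10) and Asb15 to −0.16 (adjusted p = 0.40). The GC content of the longest transcript was 59.4% for Asb2, 56.5% for Asb10, 48.3% for Asb12 and 43.1% for Asb15. In TA the 4 calls were kept under these offsets, at log2 fold changes of 0.54 for Asb2, 0.22 for Asb10, 0.37 for Asb12 and −0.74 for Asb15. Asb8 was called lower too (−0.21, adjusted p = 0.017, edgeR). Of 13295 genes tested in TA, 3263 were called with the offsets.

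The other 4 members did not pass the test in either muscle. Asb5 was at 151 and 177 CPM in albino EOM and at 156 to 175 CPM in C57BL/6 EOM, and at 295 and 332 CPM in albino TA and at 271 to 333 CPM in C57BL/6 TA, with log2 fold changes of 0.03 ± 0.10 (adjusted p = 0.87) and −0.02 ± 0.08 (adjusted p = 0.91). Its exons share 75 of 1843 bases with the opposite-strand gene Spcs3, and the strand setting of the counting is not given in the sources used here. Asb8 was at 134 and 141 CPM in albino EOM and at 119.6 to 136 CPM in C57BL/6 EOM, and at 130.4 and 130.5 CPM in albino TA and 132 to 142 CPM in C57BL/6 TA, with log2 fold changes of 0.09 ± 0.09 (adjusted p = 0.50) and −0.11 ± 0.06 (adjusted p = 0.18). Asb14 was at 109.9 and 107 CPM in albino EOM and at 83.9 to 98.0 CPM in C57BL/6 EOM, which do not overlap, yet its log2 fold change of 0.24 ± 0.08 had an adjusted p of 0.057; it was called with upper quartile factors (0.30, adjusted p = 0.017), with DESeq2 (adjusted p = 0.043) and under the marker grouping (0.28, adjusted p = 0.014). In TA it was at 187 and 185 CPM in albino libraries and at 173 to 180 CPM in C57BL/6 libraries (log2 fold change 0.04 ± 0.06, adjusted p = 0.69). Asb18, the lowest member per kb in TA, was at 4.62 and 6.45 CPM in albino EOM and at 4.61 to 6.24 CPM in C57BL/6 EOM (log2 fold change −0.03 ± 0.24, adjusted p = 0.94).

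**Figure D3:**
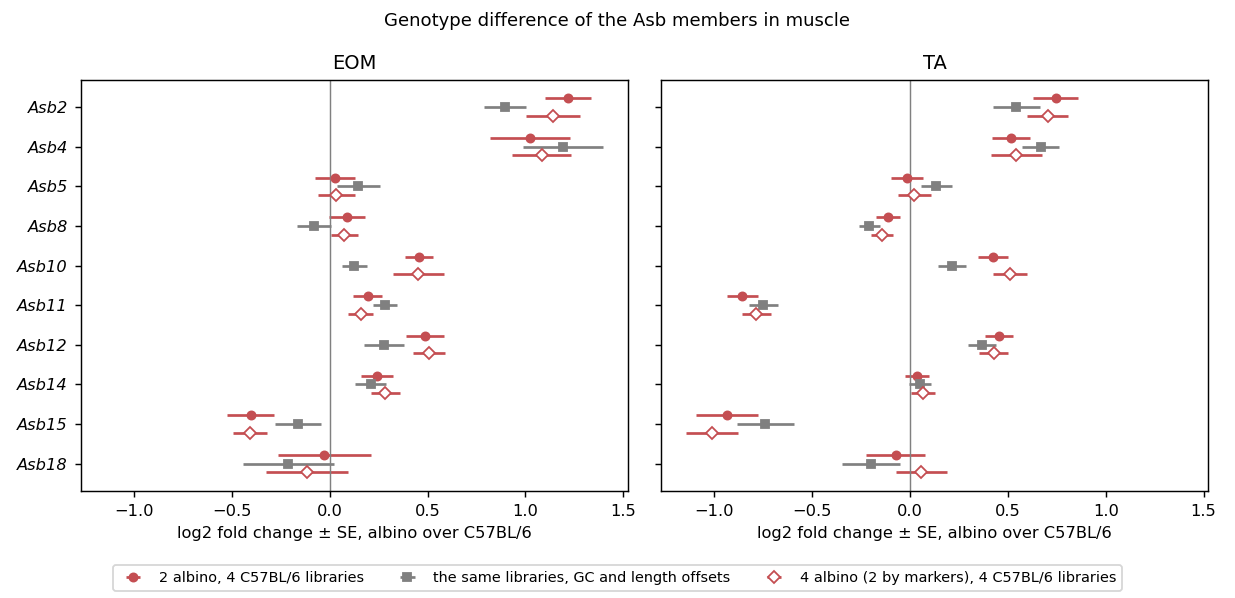
Log2 fold change of each member, albino over C57BL/6, with its standard error, in EOM (left) and TA (right); filled circles use 2 albino and 4 C57BL/6 libraries, grey squares the same libraries with GC and length offsets, and open diamonds add 2 albino libraries placed by their markers. Asb11 lies at 0.20 in EOM and at −0.86 in TA, and Asb10, Asb12 and Asb15 lie nearer to 0 in EOM with the offsets.

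Asb4 and Asb11 had been singled out for their genotype differences, and their values are given without a test. Asb4, which in cell culture is linked to the vascular lineage and to oxygen sensing, was at 6.23 and 6.79 CPM in albino EOM and at 3.19, 3.56, 2.96 and 3.26 CPM in C57BL/6 EOM, and at 22.5 and 25.3 CPM in albino TA and 14.8, 17.5, 16.4 and 16.7 CPM in C57BL/6 TA. The log2 fold change was 1.02 ± 0.20 in EOM and 0.51 ± 0.10 in TA, and 1.19 and 0.67 with the GC and length offsets. The libraries labelled albino CN3 3 and 4, with muscle markers, had 7.30 and 7.17 CPM, and those labelled albino CN6 3 and 4 had 18.3 and 27.8 CPM. Within each muscle, every albino library kept had more Asb4 than every C57BL/6 library, at counts of 66 to 78 in a C57BL/6 EOM library. Low counts in this table are mostly even, and if both reads of a pair were counted, the molecules behind such counts, and behind the limit of 3 reads above, would be fewer than the counts; this was not tested.

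Asb11, whose zebrafish counterpart acts in Notch signalling and muscle regeneration and whose human form marks the cell death protein BIK, differed in TA. It was at 120.3 and 115 CPM in albino TA and at 202, 192, 223 and 217 CPM in C57BL/6 TA, a log2 fold change of −0.86 ± 0.08. In EOM it was at 134 and 120.4 CPM in albino libraries and at 109, 110, 112 and 117 CPM in C57BL/6 libraries, a log2 fold change of 0.20 ± 0.07. The libraries labelled albino CN3 3 and 4 had 118 and 128 CPM and those labelled albino CN6 3 and 4 had 131 and 114 CPM. All 8 albino libraries with muscle markers therefore lay between 114 and 134 CPM, whichever muscle their label or markers gave. On the same scale C57BL/6 EOM lay at 109 to 117 CPM and C57BL/6 TA at 192 to 223 CPM. With TMM scaling, which these CPM leave out, the C57BL/6 log2 fold change, EOM over TA, was −1.57 ± 0.06. The albino muscles were not set against each other on that scale.

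The genotype effect was also compared between the muscles: 0 of 8 members were called by edgeR, where 7.73% of 15670 genes were called (2.23% higher, 5.49% lower), 2 had an unadjusted p under 0.05, and 0 were called by DESeq2. The difference of the log2 fold changes, EOM minus TA, was 0.46 ± 0.19 for Asb2 (adjusted p = 0.16, edgeR) and 0.52 ± 0.22 for Asb15 (adjusted p = 0.17, edgeR). Under the marker grouping Asb15 was called, at 0.66 ± 0.17 (adjusted p = 0.020, edgeR). For the 2 genes chosen on the contrast the difference was 1.05 ± 0.12 for Asb11 and 0.50 ± 0.17 for Asb4, with no test. The remaining differences ran from 0.02 to 0.20.

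Other measures moved with genotype in these libraries, and their part in the members' values was not tested. The counts called below stand beside 32% of all genes called in EOM (14.5% higher, 17.6% lower). In TA 31.1% were called (14.7% higher, 16.4% lower). Muscle fibre markers, 8 genes from Ckm to Pvalb, summed to 68038 and 70093 CPM in albino EOM against 55351 to 62518 CPM in C57BL/6 EOM, and 7 of the 8 were called higher in albino EOM (median log2 fold change 0.36). With the GC and length offsets their median in EOM was −0.05. In TA they summed to 139851 and 143806 CPM in albino libraries against 132678 to 135140 CPM in C57BL/6 libraries, and 1 of the 8 was called higher. Leukocyte markers summed to 163 and 206 CPM in albino TA against 43.9 to 49.5 CPM in C57BL/6 TA, with 5 of 5 higher, and fibroblast and tendon markers to 691 and 705 CPM in albino TA against 190 to 347 CPM in C57BL/6 TA, with 5 of 6 higher. In EOM, leukocyte markers summed to 676 and 837 CPM in albino libraries against 500.5 to 637 CPM in C57BL/6 libraries, with 3 of 5 higher. Fibroblast and tendon markers summed to 1726 and 1978 CPM in albino EOM against 2090 to 2819 CPM in C57BL/6 EOM. Of those 6, 1 was called higher and 3 lower. Endothelial markers summed to 348 and 367 CPM in albino EOM against 241 to 272 CPM in C57BL/6 EOM, and to 218 and 228 CPM in albino TA against 132 to 155 CPM in C57BL/6 TA, with 3 of 4 called higher in each muscle and median log2 fold changes of 0.93 in EOM and 0.89 in TA. Of 9 clock genes, 7 were called in EOM and 9 in TA. Arntl was at 52.6 and 48.1 CPM in albino EOM against 3.78 to 6.90 CPM in C57BL/6 EOM, and Per2 at 5.09 and 7.22 CPM in albino EOM against 55.8 to 78.4 CPM in C57BL/6 EOM. Genotype and the clock state of the muscle cannot be told apart.

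Of 12 partners of the adaptors in the ligase, 3 were called higher and 4 lower in albino EOM, where 32% of all genes were called, and 2 were higher and 6 lower in albino TA, where 31.1% were. The other 5 in EOM and 4 in TA did not pass the test. Dcun1d1, which helps to attach Nedd8 to cullins, had a log2 fold change of −0.92 in EOM (23.2 CPM in albino against 44.29 CPM in C57BL/6 libraries, adjusted p = 9.7e-04, edgeR) and −0.95 in TA (37.4 CPM in albino against 70.8 CPM in C57BL/6 libraries, adjusted p = 2.9e-05, edgeR). Tceb2, the gene of elongin B, was higher, by a log2 fold change of 0.86 in EOM (adjusted p = 0.0013, edgeR) and 0.50 in TA (adjusted p = 1.8e-04, edgeR). Nedd8 (0.66) and Ube2m, its conjugating enzyme (0.54), were higher in albino EOM. In TA the cullins Cul5 (−0.51) and Cul2 (−0.33) were lower. The genotype effect differed between the muscles for Ube2m (0.58, adjusted p = 0.0027, edgeR) and for Ube2f, the Nedd8 enzyme that serves Cul5 (0.45, adjusted p = 0.023, edgeR). With the GC and length offsets 4 of the 12 were called in each muscle. Under these offsets 2585 of 15397 genes were called in EOM and 3263 of 13295 in TA.

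Of 12 genes reported as substrates of Asb proteins, 2 were higher and 2 lower in albino EOM, and 3 were higher and 1 lower in albino TA, beside the same shares of all genes. Among the filamins, which Asb2 marks, Flna was at 265 ± 26.6 CPM in albino EOM against 397 ± 79.1 CPM in C57BL/6 EOM (log2 fold change −0.56, adjusted p = 0.027, edgeR), and Flnc, the muscle filamin, was at 758 ± 56.8 CPM in albino TA against 523 ± 33.5 CPM in C57BL/6 TA (log2 fold change 0.51, adjusted p = 3.0e-04, edgeR). Tbk1 (−0.37) was lower in albino EOM, and Bik (1.31) and Gps1 (0.28) were higher. In TA, Ckb (1.52) and Tnfrsf1b (1.05) were higher and Des, the muscle intermediate filament (−0.24), was lower. These are RNA levels, on which the degradation of a protein does not show. In EOM 1 of the 12 was called with the GC and length offsets, where 2585 of 15397 genes were.

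Of the other muscle ubiquitin ligase genes, 3 were called higher and 6 lower of 17 in albino EOM, where 32% of all genes were called, and 6 higher and 3 lower of 16 in albino TA, where 31.1% were. Klhl30, an adaptor of Cul3 by its family, was higher in both (0.77 in EOM, 0.63 in TA), and Klhl33 was lower in both (−0.60 in EOM, −0.98 in TA). Fbxo32, the atrogin-1 gene that rises in muscle atrophy, was at 839 ± 56.1 CPM in albino TA against 375 ± 87.5 CPM in C57BL/6 TA (log2 fold change 1.13, adjusted p = 1.9e-04, edgeR). Its genotype effect was lower in EOM than in TA (difference −0.94, adjusted p = 0.023, edgeR), as was that of Klhl38 (−1.16, adjusted p = 0.018, edgeR).

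Asb4 lies on chromosome 6 (5383386 to 5433022, plus strand, mm10) between Pon2 and Pdk4, in a stretch that also holds the imprinted Peg10 and Sgce. Of 11 genes of that stretch tested in EOM, 1 was higher and 2 were lower in albino libraries, where 32% of all genes were called. Of 9 in TA, 2 were higher and 3 lower, where 31.1% of all genes were called. Pdk4, the next gene after Asb4 and the brake on pyruvate oxidation, was at 353 and 723 CPM in albino EOM against 119, 153, 199.8 and 121 CPM in C57BL/6 EOM (log2 fold change 1.89 ± 0.28, adjusted p = 0.0019, edgeR). In TA it was at 731 and 1588 CPM in albino libraries against 372, 471, 848 and 271 CPM in C57BL/6 libraries, which overlap (1.20 ± 0.35, adjusted p = 0.021, edgeR). Casd1, on the other side of the stretch, was lower in both muscles (−0.65 in EOM, adjusted p = 0.0019, and −0.63 in TA, adjusted p = 3.9e-04, edgeR). Pdk4 and Casd1 thus moved in opposite directions. Counts of so few genes are read beside the shares of all genes as no result about the stretch. Asb11 lies on chromosome X (164436994 to 164459170, plus strand) next to Piga and Asb9, and Asb9 was too low to be tested.

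The brainstem values of Asb4, again a description with no test, were higher in albino libraries. It was at 7.49 and 10.1 CPM in albino CN3 and at 2.38, 3.03, 2.28 and 2.38 CPM in C57BL/6 CN3, a log2 fold change of 1.81 ± 0.20, and at 14.4 and 6.28 CPM in albino CN6 and 4.32, 5.10, 4.38 and 4.39 CPM in C57BL/6 CN6, a log2 fold change of 1.17 ± 0.26. The albino libraries were above all C57BL/6 libraries of their site. The CN6 value rests on albino CN6 1, without which it was 0.47. The libraries labelled albino EOM 1 and 2, which carry neuron markers, had 10.7 and 5.61 CPM, and those labelled albino TA 1 and 2 had 7.11 and 12.2 CPM.

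Markers of the dissected site also differed between these libraries. Tph2, the enzyme that marks serotonin neurons of the raphe, was at 90.6 and 233 CPM in albino CN3 against 0.859 to 3.23 CPM in C57BL/6 CN3. In CN6 it was at 244 CPM in albino CN6 1 and 11.5 CPM in albino CN6 2 against 5.30 to 17.1 CPM in C57BL/6 CN6. Hoxb3, a hindbrain position gene, was at 2.61 CPM in albino CN6 1 and 20.8 CPM in albino CN6 2 against 23.0 to 31.4 CPM in C57BL/6 CN6. Albino CN6 2, whose Tph2 lay within the C57BL/6 range, had the lower Asb4 of that pair, at 6.28 CPM. Asb4 in C57BL/6 CN6 was at 4.32 to 5.10 CPM. Of the libraries labelled albino EOM 1 and 2, the first had 220 CPM of Tph2 and 10.7 CPM of Asb4. The second had 24.4 and 5.61 CPM. Those labelled albino TA 1 and 2 had 32.0 and 67.7 CPM of Tph2 and 7.11 and 12.2 CPM of Asb4. In albino CN3 1 and 2, with 90.6 and 233 CPM of Tph2, Asb4 was at 7.49 and 10.1 CPM. In each of these albino pairs the library with more Tph2 had more Asb4. The C57BL/6 library with the highest Tph2 had the lowest Asb4 in CN3 (3.23 and 2.28 CPM) and 4.38 CPM of Asb4 in CN6. Pituitary markers, unlike Tph2, were lower in albino CN3, where they summed to 1.40 and 1.58 CPM against 7.23 to 467 CPM in C57BL/6 CN3. The part of either in Asb4 was not tested.

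**Figure D4:**
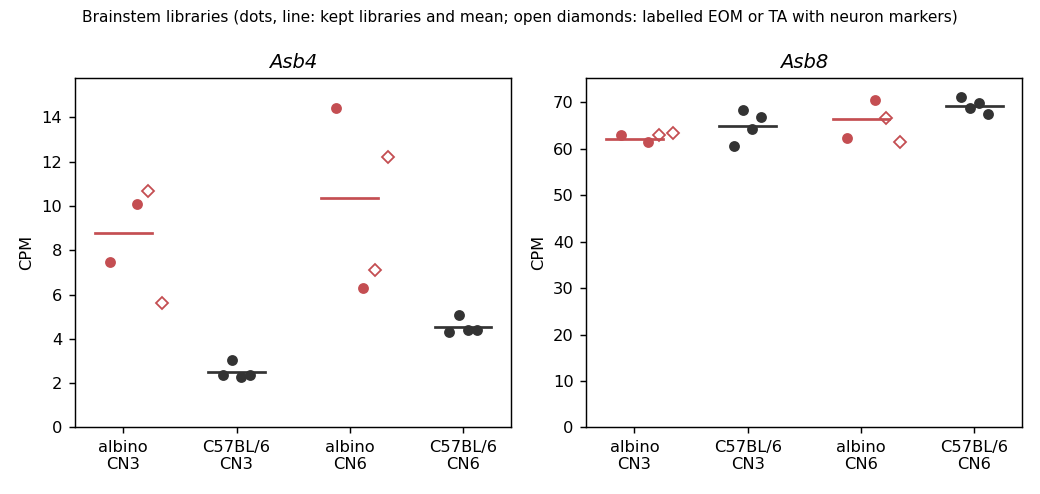
CPM of Asb4 and Asb8 in brainstem libraries, linear axes from 0, with albino left of C57BL/6 in CN3 and in CN6; dots are the libraries kept, lines their means, and open diamonds the 4 libraries labelled albino EOM or TA that carry neuron markers. Asb4 lies between 5.61 and 14.4 CPM in all albino libraries and between 2.28 and 5.10 CPM in all C57BL/6 libraries, and Asb8 between 60.5 and 71.0 CPM in both genotypes.

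The other members were tested in brainstem. Of the 5 that passed the filter in CN3, 0 were called by edgeR, where 0.0804% of 16171 genes were (0.068% higher, 0.0124% lower), with 0 at an unadjusted p under 0.05 and 0 by DESeq2. Of the 6 others in CN6, 0 were called by edgeR, where 0.0246% of 16268 genes were (0.00615% higher, 0.0184% lower), with 1 at an unadjusted p under 0.05 and 0 by DESeq2. That 1 was Asb18 (log2 fold change −2.08 ± 0.69, adjusted p = 0.46), at 0.163 and 0.0598 CPM in albino CN6 and at 0.736, 0.229, 0.438 and 0.502 CPM in C57BL/6 CN6. These are low levels, of a few reads in the albino libraries, and the groups did not overlap. Asb8 was at 62.9 and 61.4 CPM in albino CN3 and at 60.5, 68.4, 64.2 and 66.7 CPM in C57BL/6 CN3 (log2 fold change −0.05 ± 0.08, adjusted p = 0.88), and at 62.4 and 70.6 CPM in albino CN6 and 71.0, 68.7, 69.9 and 67.4 CPM in C57BL/6 CN6 (−0.07 ± 0.08, adjusted p = 0.81).

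In pigmented mice the members had lower values in EOM than in TA with TMM scaling. Since the list was drawn up with the levels by tissue known, these values are a description with no test. All 10 log2 fold changes were below 0, in a comparison where edgeR called 77.2% of 14408 genes (42.3% higher, 35% lower). Their median was −1.58, against 0.10 over all genes. Asb4 was at 3.24 ± 0.248 CPM in EOM and 16.3 ± 1.15 CPM in TA (SD, n = 4), a log2 fold change of −3.01 ± 0.11. Asb2 (−2.19 ± 0.11), Asb15 (−1.98 ± 0.12), Asb14 (−1.61 ± 0.06), Asb5 (−1.60 ± 0.07) and Asb11 (−1.57 ± 0.06) followed. Asb18 (−1.11), Asb12 (−1.03), Asb10 (−0.93) and Asb8 (−0.75) lay nearest to 0.

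The size of this difference depends on the scaling. TMM factors were 1.24 to 1.29 in EOM and 0.784 to 0.792 in TA, and without them, on library totals alone, the median over all genes was 0.78 in place of 0.10, with 10499 genes called higher and 1591 lower in EOM in place of 6089 and 5037. On totals Asb4 had a log2 fold change of −2.33, Asb2 of −1.51, Asb15 of −1.30, Asb14 of −0.94, Asb5 of −0.93, Asb11 of −0.90, Asb18 of −0.44, Asb12 of −0.35 and Asb10 of −0.26. Asb8, at 119.6 to 136 CPM in EOM and 132 to 142 CPM in TA, came to −0.08, and its EOM and TA libraries overlapped. The muscle fibre markers moved too, with 8 of 8 lower in EOM, a median of −1.998 with TMM and −1.32 on totals. With TMM the single fibre markers ran from −2.80 for Pvalb to −1.20 for Atp2a1. Asb4 lay below that range, and Asb18, Asb12, Asb10 and Asb8 lay above it.

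**Figure D5:**
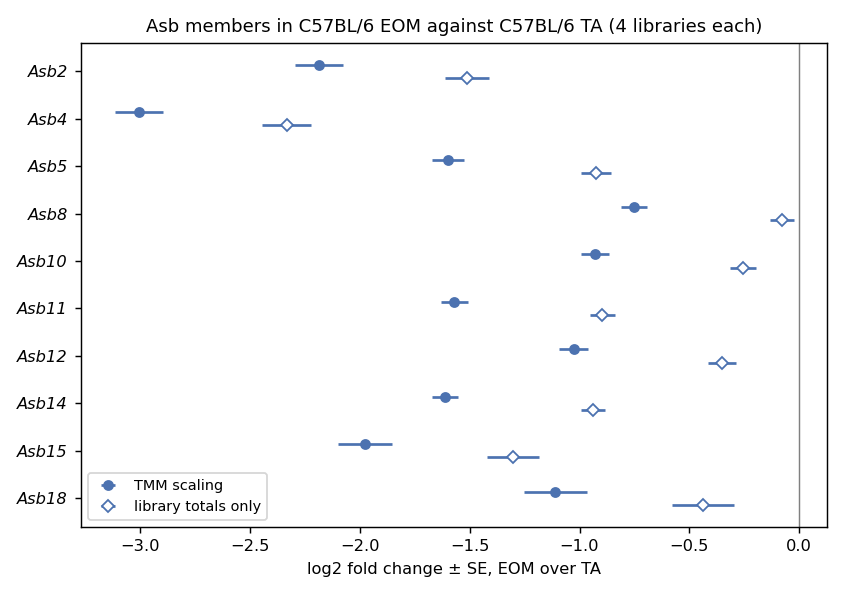
Log2 fold change, EOM over TA, of each member in the C57BL/6 libraries with its standard error, with TMM scaling and with library totals only. With TMM all 10 lie between −3.01 and −0.75, and on totals Asb8 moves to −0.08.

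The cullin partners were lower in EOM as well, 11 of 12 with TMM and 9 of 12 on totals. Over all 14408 genes tested, 5037 were lower and 6089 higher with TMM, and 1591 were lower and 10499 higher on totals. The counts below stand beside the same totals of all genes. Among the lower partners were Arih2, the ligase that works with Cul5 (−1.46), Ube2f (−1.06), Ube2m (−1.005) and Cul2 (−0.95). Cand1, which takes cullins apart for exchange of adaptors, was higher (0.98). Of the substrates 6 of 12 were higher and 4 lower with TMM, and 8 were higher and 1 lower on totals. Flna was at 397 ± 79.1 CPM in EOM and 74.8 ± 12.3 CPM in TA (log2 fold change 1.73), Id2 at 20.5 ± 1.58 CPM in EOM and 2.41 ± 0.366 CPM in TA (2.41), and Des at 1955 ± 60.5 CPM in EOM and 3171 ± 88.5 CPM in TA (−1.37). Flnc, with −0.72 on TMM, was at 505 ± 22.6 CPM in EOM and 523 ± 33.5 CPM in TA. Of the other muscle ubiquitin ligase genes 2 of 17 were higher and 13 lower with TMM, and 8 were higher and 9 lower on totals. Klhl31 (−1.93), Fbxo40 (−1.80), Klhl30 (−1.67) and Mdm2 (−1.03) were among the lower.

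Among the other 8 Asb genes, Asb9 and Asb17 were too low to be tested. Of the 6 tested, Asb6 was higher in albino EOM (14.2 CPM in albino against 7.98 CPM in C57BL/6 libraries, log2 fold change 0.84, adjusted p = 0.0033, edgeR). Asb1 (38.2 CPM in albino against 51.1 CPM in C57BL/6 EOM, −0.41), Asb3 (11.96 against 16.8 CPM, −0.48) and Asb7 (15.7 against 20.1 CPM, −0.35) were lower there. With the GC and length offsets only Asb6 (0.67) and Asb1 (−0.31) were called in EOM, where 2585 of 15397 genes were. In albino TA, Asb1 (−0.25), Asb7 (−0.42) and Asb13 (−0.31) were lower. In EOM against TA of C57BL/6 mice 1 of the 6 was higher (Asb1, 0.24) and 3 were lower (Asb6, Asb13 and Asb16) with TMM. On totals 3 were higher (Asb1, Asb3 and Asb7) and 1 lower (Asb13), beside the same counts of all genes as above. Asb13 was at 87.4 CPM in C57BL/6 CN3 and 126 CPM in C57BL/6 CN6.

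Over the 12 muscle libraries kept, among 12805 genes with a mean of at least 1 CPM, the log2 CPM of Asb4 was most like that of Chac1 (r = 0.995), Ptp4a3 (r = 0.995) and Ankrd23 (r = 0.993), and that of Asb11 most like Hbegf (r = 0.984), Zfp503 (r = 0.947) and Cwc15 (r = 0.938). Over all 24 libraries kept, among 14004 genes, Asb4 was most like Pkm (r = 0.851), Capzb (r = 0.835) and Cyp4f39 (r = 0.834), and Asb11 most like Cacna1s (r = 0.996), Smco1 (r = 0.995) and Alpk3 (r = 0.995). The libraries share tissue, genotype and strain background, so these values describe likeness of pattern only.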

How the data were processed

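The authors deposited raw read counts per gene symbol for 32 libraries. Per the submitters' processing notes, Trimmomatic 0.33, FastQC, HISAT2 2.1.0, featureCounts and edgeR were used with mm10; the annotation, strand setting and filters are not given in the sources used here. Of the table's values from 1 to 12, 81.4% are even numbers, and 2 symbols occur more than once.

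Counts were tested in R 4.3.3 with the quasi-likelihood F test of edgeR 4.0.16 after filterByExpr and TMM scaling, and a gene was called at a Benjamini-Hochberg adjusted p under 0.05 over all genes tested. Each comparison was fitted alone on the libraries whose muscle fibre and neuron markers match the labelled kind of tissue. DESeq2 1.42.0 was an alternative. CPM is relative to the deposited total and log2 CPM uses a prior count of 2. The standard error is the log2 fold change divided by the root of F. The fits were tested on simulated data.

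The GC and length offsets were natural splines of 5 degrees of freedom each, for the 95.4% of symbols with a GENCODE M21 transcript. Scaling by library totals only and these offsets were chosen after seeing the data. The members and gene lists were chosen with earlier results of these data known. Named are all Asb genes, up to 4 members of each other list with the smallest adjusted p in a contrast, and for Asb4 and Asb11 the 3 genes of highest correlation. Cand1 was named after its value was seen, and Hoxb3 and Tph2 from earlier results. No protein sequences were used.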

Additional observations from a re-analysis of the deposited data

Results flagged for a closer look

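In a group of 4 C57BL/6 libraries, a library was set apart where its gap to the nearest other took more of the group's range than Dixon's 95% critical value. Of 34 groups of members and tissues examined, 5 met this, where chance gives about 1 in 20. In C57BL/6 CN3 the library 2 had the highest Asb4 (3.03 CPM, share of the range 0.863), and in C57BL/6 CN6 library 2 had the highest Asb4 (5.10 CPM, 0.903). These 2 libraries also had the highest pituitary marker sums of their groups, 467 and 344 CPM. Asb5 was lowest in C57BL/6 CN3 2 (0.271 CPM, 0.843), Asb8 lowest in C57BL/6 EOM 3 (119.6 CPM, 0.831) and Asb14 lowest in C57BL/6 TA 1 (173 CPM, 0.834).

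The 4 libraries under CN3 and CN6 albino labels that carry muscle markers, left out of the comparisons, held Asb2 at 364 CPM or more and Asb5 at 155.5 CPM or more, against at most 2.83 and 0.717 CPM in the brainstem libraries of C57BL/6 mice.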

How the results depend on the processing

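Each genotype comparison rests on 2 albino libraries. The log2 fold changes that had been called, and those of Asb4 and Asb11, kept their direction under each alternative run except the labels as given, which mix muscle and brainstem: EOM then gave Asb10 −0.51, Asb11 −0.77 and Asb12 −0.48, and TA gave Asb2 −0.25, Asb4 −0.18, Asb10 −0.57 and Asb12 −0.54. Values not called changed sign in 74 of 767 pairs of a result and an alternative, 9 of them under the labels as given, and were at most 0.28 in size under the others. As labelled, 1 gene was called in EOM, 18 in TA, 0 in CN3, 0 in CN6 and 33 for the difference between the muscles, and 0 members in either muscle. Libraries of C57BL/6 EOM and TA with the same replicate number were weakly alike (r from 0.014 to 0.217, own number best for 2 of 4 libraries). That cannot tell whether they came from the same animal. With the replicate number as a block 2641 genes and 2 members were called in EOM, where Asb12 (adjusted p = 0.051) and Asb15 (adjusted p = 0.091) were not, and 5 genes in CN3 and 0 in CN6. GC and length offsets gave 2585 genes and 1 member in EOM. No filter gave 21 genes in CN3 and 21 in CN6, DESeq2 101 in CN3, 106 in CN6 and 1896 for the difference between the muscles, and 1 fit of all libraries 49 in CN3 and 12 in CN6. The marker grouping gave 45 genes in CN3, 19 in CN6, and 1988 genes and 1 member for the difference between the muscles. Leaving out a library gave 2738 to 4811 genes in EOM, 2484 to 3849 in TA, 2 to 12 in CN3, 4 to 950 in CN6 (950 without albino CN6 2) and 591 to 1351 for the difference between the muscles, and 3 to 4 members in EOM. Upper quartile factors gave 2442 genes higher and 1745 lower in TA in place of 1950 and 2181, and 637 and 876 for the difference between the muscles in place of 350 and 861. The cause of these changes was not tested.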
